A study of Rattus norvegicus with 9 samples.

Results

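Carbonic anhydrases are zinc enzymes that interconvert carbon dioxide and bicarbonate, and 10 of their genes were followed here across rat liver cells of 3 kinds: Car1, Car2, Car3, Car4, Car5a, Car5b, Car8, Car9, Car12 and Car14. They were taken by name from 14497 genes with a probe set of their own on Affymetrix Rat ST 1.0 arrays. Each of the 10 has a single probe set. The members were selected on their log2 levels in these same arrays, with the erythroid gene Car1 set against Car3 of adult liver, and each gene by the probe set with its highest mean, so the levels of all 10 are described without p-values. Tests are given for related genes outside the set.

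All cells came from livers of F344 rats, with 3 preparations and 3 arrays in each group, called biological replicates in the labels. The cells of both fetal groups, OC.2+ and OC.2-, were taken at embryonic day 19, after collagenase digestion and magnetic selection with antibodies to leucine aminopeptidase (LAP), a surface protein of hepatic cells, and to OC.2, an antigen of oval cells and ducts. Both fetal groups are labelled LAP+, and both carry the same isolation text, a double positive selection, so only the names of the samples and cell types tell them apart. The description field of each OC.2+ sample has LAP-OC2+ instead. Adult hepatocytes came from rats aged 5 to 6 weeks by collagenase perfusion. Neither the sex of the animals nor any pooling of livers is stated in the labels. No agent or transgene is named for any group.

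Levels below are log2 intensities of the authors' normalised values, and differences are on the same scale ± SE, from a limma fit over all 9 arrays. The median gene stood at 6.68 to 6.69 on OC.2+ arrays, 6.69 to 6.72 on OC.2- arrays and 6.59 to 6.62 on adult arrays. The files used here give no detection call, so a level near or under these medians cannot show whether a gene was expressed. The labelled cell type was checked against 8 hepatocyte markers: their summed intensity was 28452 to 31056 on OC.2+ arrays, 64548 to 70226 on OC.2- arrays and 57914 to 63277 on adult arrays. Afp is on this list, with means of 12.8 in OC.2+ cells, 13.7 in OC.2- cells and 7.1 in adult hepatocytes. It thus added far more to the fetal sums than to the adult sums. The sums therefore do not rank OC.2- cells against adult hepatocytes. Red-cell precursor markers (10 of 12 measured) summed to 30758 to 30987 in OC.2+ cells, 11781 to 14548 in OC.2- cells and 699 to 753 in adult hepatocytes. Granulocyte markers (8 of 8) summed to 16839 to 19278 in OC.2+ cells, against 490 to 550 in OC.2- cells and 433 to 471 in adult hepatocytes. Transcripts of red-cell precursors were thus present in the RNA of both fetal groups. Granulocyte transcripts were plain in that of OC.2+ cells, while the OC.2- sums were near the adult sums. In RNA of mixed cells fewer cells of a type and less RNA per cell cannot be told apart.

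The enzymes of this family differ in where they work. Car1, Car2 and Car3 are cytosolic, Car5a and Car5b mitochondrial, and Car4, Car9, Car12 and Car14 face the outside of the cell. In red cells Car1 and Car2 turn carbon dioxide into bicarbonate, which leaves through the anion exchanger Slc4a1 (band 3). In hepatocyte mitochondria bicarbonate feeds pyruvate carboxylase and the first step of the urea cycle. Car8 belongs to the family by sequence but has lost the activity.

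Promoter windows show the start regions of 3 members whose levels followed different patterns: Car12, highest in OC.2- cells, and Car14 and Car5a, both highest in adult hepatocytes. RefSeq (GRCr8) windows of 250 bases before to 50 after the gene start were at hand for 6 of the 10 members. Windows for Car1, Car2, Car3 and Car8 were not used here. Each line gives 300 bases, 5′ to 3′ on the gene's strand, and capitals mark ACGTG, the core of the hypoxia response element, read on either strand.
Car12 (chr8:76169565-76169864, plus strand): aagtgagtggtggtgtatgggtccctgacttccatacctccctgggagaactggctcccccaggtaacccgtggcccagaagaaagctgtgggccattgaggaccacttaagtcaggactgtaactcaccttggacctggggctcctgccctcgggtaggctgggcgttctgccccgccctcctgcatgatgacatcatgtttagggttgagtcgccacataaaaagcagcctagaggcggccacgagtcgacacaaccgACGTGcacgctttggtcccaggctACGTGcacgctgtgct
Car14 (chr2:186138115-186138414, minus strand): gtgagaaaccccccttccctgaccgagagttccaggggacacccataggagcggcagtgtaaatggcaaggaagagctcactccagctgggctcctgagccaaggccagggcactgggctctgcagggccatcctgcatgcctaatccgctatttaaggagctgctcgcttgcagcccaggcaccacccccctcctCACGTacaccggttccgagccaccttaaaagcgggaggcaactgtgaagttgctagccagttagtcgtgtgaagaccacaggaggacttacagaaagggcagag
Car5a (chr19:66911437-66911736, minus strand): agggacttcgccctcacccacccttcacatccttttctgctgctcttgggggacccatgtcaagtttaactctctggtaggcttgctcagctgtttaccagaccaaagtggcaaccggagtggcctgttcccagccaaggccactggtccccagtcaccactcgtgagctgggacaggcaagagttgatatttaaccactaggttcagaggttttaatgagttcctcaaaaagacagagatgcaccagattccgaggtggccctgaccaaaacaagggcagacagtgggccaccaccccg
The Car12 window held ACGTG at 2 places, beginning at bases 11 and 35 after the start. The Car14 window held 1 match, on the opposite strand, beginning at base -54. The Car5a window held none. ACGTG occurs on either strand in 19.3% of 33469 windows of the same length. The other motifs searched on both strands, TATAAA (14.2% of windows), AGATAA of GATA factors (11.6%), CCACACCC of KLF factors (3.22%), GTTAAT of HNF1 (7.45%) and CCAAT (37.5%), had no match in these windows. Of the other members with a window, Car4 and Car9 held ACGTG and Car5b did not. ACGTG overlaps its own reverse complement in CACGTG, and a match is a description of letters and not a site.

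The red-cell pair, Car1 and Car2, was highest in OC.2+ cells, intermediate in OC.2- cells and lowest in adult hepatocytes. Car1, the most abundant carbonic anhydrase of red cells, had log2 intensities of 12.73, 12.61 and 12.60 in OC.2+ cells, 9.94, 10.06 and 10.47 in OC.2- cells, and 7.28, 7.09 and 7.65 in adult hepatocytes. No array of one group overlapped with those of another, and OC.2- replicate 3 was the highest of its group. Car1 was 39.6-fold higher in OC.2+ cells than in adult hepatocytes (log2 difference 5.31 ± 0.15), the 18th highest difference of all genes. It was 7.06-fold higher in OC.2- cells than in adult hepatocytes (2.82 ± 0.15) and 5.6-fold higher in OC.2+ cells than in OC.2- cells (2.49 ± 0.15).

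Car2, the fast cytosolic enzyme of red cells and of many other tissues, followed the same order. It stood at 10.90, 11.07 and 11.25 in OC.2+ cells, 8.96, 8.95 and 9.16 in OC.2- cells, and 6.63, 7.27 and 6.80 in adult hepatocytes. The groups were again apart, and the adult arrays, all above their median gene, differed most among themselves. The folds were 18.1 for OC.2+ cells over adult hepatocytes (4.18 ± 0.15), 4.36 for OC.2- cells over adult hepatocytes (2.13 ± 0.15) and 4.14 for OC.2+ over OC.2- cells (2.05 ± 0.15).

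The red-cell markers moved with this pair: all 10 measured were called higher in each comparison. Over all genes 20.3% were called higher in OC.2+ against OC.2- cells. Against adult hepatocytes 23.7% were called higher in OC.2- and 32.0% in OC.2+ cells. Among OC.2- arrays the summed intensity of the markers was also highest on replicate 3 (14548, against 12679 and 11781 on replicates 1 and 2). The part of these markers in the levels of Car1 and Car2 was not tested. The genes with the nearest profile to Car1, by the Euclidean distance between log2 profiles over the 9 arrays after centring each gene, were S100a11 (distance 0.75), Rhag (1.14), Ucp2 (1.15), Slc4a1 (1.28) and Alas2 (1.28). Rhag is the Rh-associated glycoprotein of the red-cell membrane, and Alas2 starts haem synthesis in red-cell precursors. Nearest to Car2 were Atp2b4 (0.38), a calcium pump, Klf1 (0.42), an erythroid transcription factor, Cd55 (0.54), a complement regulator, Sptb (0.62), the red-cell spectrin, and Cdc25b (0.62), a cell cycle phosphatase. Rhag, Slc4a1, Alas2 and Klf1 are also among the red-cell markers counted above.

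Car3, a cytosolic enzyme of low activity that is abundant in skeletal muscle, fat and the liver of male rats, ran the other way. It stood at 5.90, 5.76 and 5.69 in OC.2+ cells and at 5.80, 5.83 and 5.77 in OC.2- cells, against 13.32, 13.03 and 13.15 in adult hepatocytes. The fetal arrays overlapped each other and lay below the median gene. Against adult hepatocytes Car3 was 167-fold lower in OC.2+ cells (-7.38 ± 0.09) and 165-fold lower in OC.2- cells (-7.37 ± 0.09), the third lowest difference of all genes in both comparisons. Between OC.2+ and OC.2- cells the difference was -0.01 ± 0.09 (95% interval -0.21 to 0.18). Since the fetal level is near the bottom of the range and the adult level near its top, these folds can be understated.

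Markers of the other tissues rich in Car3 were summed beside it. Skeletal muscle markers (5 of 6 measured) summed to 548 to 587 in OC.2+ cells, 515 to 548 in OC.2- cells and 457 to 505 in adult hepatocytes. The adipocyte list (5 of 5) summed to 331 to 363, 432 to 488 and 733 to 829 in the same order. Of its genes, Adipoq, a fat-cell hormone, and Plin1, a lipid droplet coat, stood at 5.71 to 5.74 and 6.00 to 6.12 on adult arrays. Lep and Fabp4 stood at 6.22 to 6.395 and 4.99 to 5.48 there, and these genes were all under the median gene. Cidec, a lipid droplet protein, had a level of 8.97 to 9.18 on adult arrays, against means of 6.44 in OC.2+ and 7.42 in OC.2- cells. Fabp4 had its highest mean in OC.2- cells (6.22), against 5.29 in OC.2+ cells and 5.25 in adult hepatocytes.

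The nearest profiles to Car3 were those of Cyp2c13 (distance 0.72), Cyp2c11 (0.78), Serpina3c (0.87), Tat (0.92) and Dhrs7l1 (1.01). Cyp2c11 and Cyp2c13 are male-biased P450 enzymes of adult rat liver under growth hormone control. All 6 measured male-biased genes were lower in each fetal group than in adult hepatocytes. Their medians were -6.54 for OC.2+ and -6.49 for OC.2- cells, against medians of 0.11 and 0.07 over all genes. In these comparisons 23.4% and 20.9% of all genes were called lower. Cyp2c11 was 205-fold lower in OC.2+ cells (limma adjusted p = 6.14e-14) and 237-fold lower in OC.2- cells (limma adjusted p = 6.6e-14). Of the 4 measured female-biased genes, 3 were also lower in both. The female-specific P450 Cyp2c12 stood at 4.80 to 5.01 in OC.2+ cells, 4.98 to 5.13 in OC.2- cells and 8.77 to 9.39 in adult hepatocytes. It was 19.6-fold lower in OC.2+ cells (limma adjusted p = 2.25e-11) and 17.2-fold lower in OC.2- cells (limma adjusted p = 1.2e-10). These P450 enzymes are close relatives that can share probe signal, and none of the 5 sex-linked markers looked for had a probe set of its own here.

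**Figure D1:**
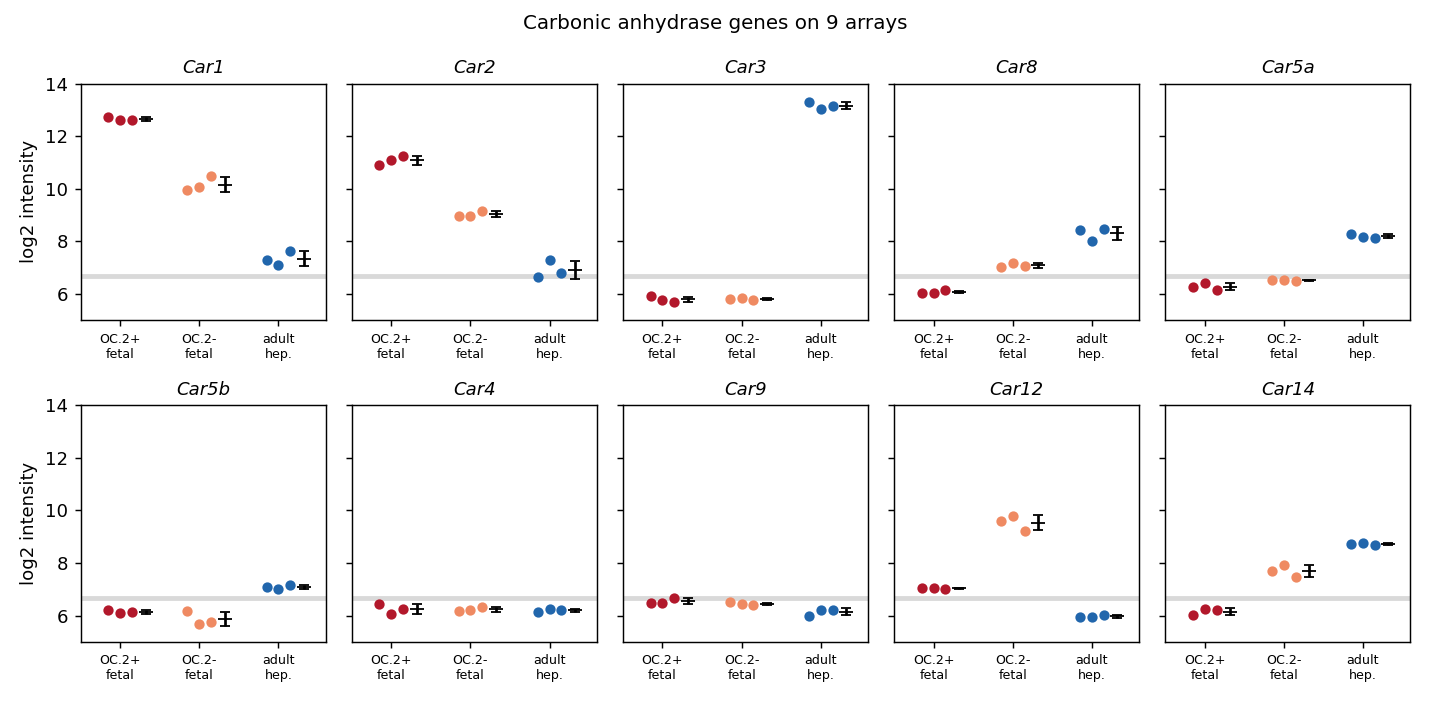
Log2 intensity of the 10 carbonic anhydrase genes on each array, with OC.2+, OC.2- and adult samples from left to right. Dots are arrays, black bars are means ± SD (n = 3), and the grey band is the range of the array medians over all genes, 6.59 to 6.72. Car1 and Car2 step down from OC.2+ to adult, Car3 reaches 13.03 to 13.32 in adult hepatocytes alone, and Car12 is highest in OC.2- cells at 9.22 to 9.78.

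Genes with opposite patterns lie side by side in the genome. On rat chromosome 2 of assembly GRCr8, used here for gene order only, Car2, Car3, Car1 and Car13 follow each other with no other annotated gene between them. Car3 therefore lies between Car2 and Car1. Car13, a further cytosolic enzyme, stood at 5.64 to 5.96 in OC.2+ cells, 5.84 to 5.94 in OC.2- cells and 5.52 to 5.82 in adult hepatocytes, all under the median gene. It differed by 0.13 ± 0.10 between OC.2+ cells and adult hepatocytes (limma adjusted p = 0.274) and by 0.21 ± 0.10 between OC.2- cells and adult hepatocytes (limma adjusted p = 0.118). The 95% intervals were -0.08 to 0.35 and -0.01 to 0.42.

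**Figure D2:**
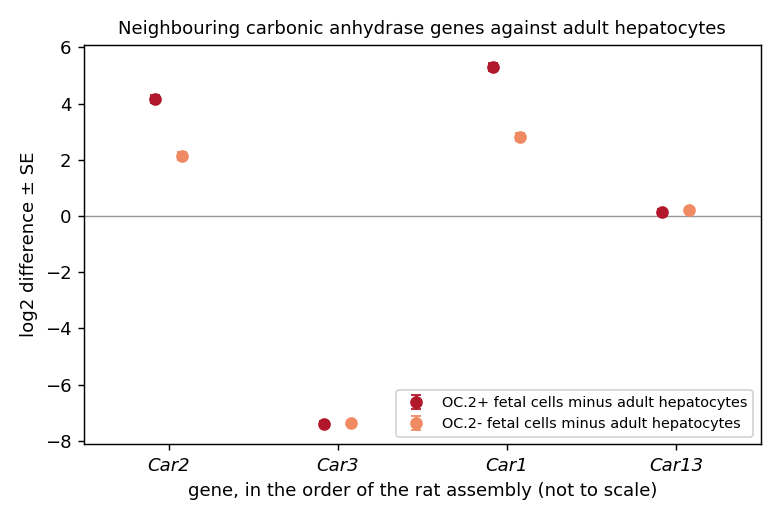
Log2 difference ± SE of each fetal group from adult hepatocytes for 4 neighbouring genes, in their order on the rat assembly and not to scale. Car3 at -7.38 in OC.2+ cells and -7.37 in OC.2- cells lies between Car2 and Car1, which are above 0 in both, and Car13 is near 0. Both differences share the adult arrays.

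The mitochondrial enzymes were highest in adult hepatocytes. Car5a, the isozyme of liver mitochondria, had levels of 6.25, 6.41 and 6.14 in OC.2+ cells, 6.52, 6.52 and 6.499 in OC.2- cells, and 8.29, 8.16 and 8.13 in adult hepatocytes. Adult arrays stood well apart, while both fetal groups were under the median gene. Car5a was 3.79-fold lower in OC.2+ cells (-1.92 ± 0.09) and 3.2-fold lower in OC.2- cells (-1.68 ± 0.09) than in adult hepatocytes. Between the fetal groups it differed by -0.25 ± 0.09, a call that ended after median centring (-0.22), without OC.2+ replicate 1 (-0.24) or 3 (-0.18), and without OC.2- replicate 1 (-0.24), 2 (-0.24) or 3 (-0.25).

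Car5b, the mitochondrial isozyme of wider tissue range, had 6.23, 6.09 and 6.13 in OC.2+ cells, 6.15, 5.68 and 5.77 in OC.2- cells, and 7.07, 7.004 and 7.15 in adult hepatocytes. The fetal groups overlapped, and OC.2- replicate 1 lay with the OC.2+ arrays. Car5b was 1.9-fold lower in OC.2+ cells (-0.93 ± 0.11) and 2.3-fold lower in OC.2- cells (-1.20 ± 0.11) than in adult hepatocytes. OC.2+ minus OC.2- cells gave 0.28 ± 0.11, which was not called, but was without OC.2- replicate 1 (0.42) and after median centring (0.30). The nearest profile to Car5a was that of Oplah (distance 0.26), followed by Lgals8 (0.30), Mocos (0.31), Tmem19 (0.31) and Znrf2 (0.32). For Car5b they were Csrp1 (0.20), Fahd1 (0.26), Lasp1 (0.31), Xpc (0.35) and Lmtk2 (0.35).

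Among the enzymes that face the outside of the cell, Car12 was the one member with its highest level in OC.2- cells. Car12, a transmembrane enzyme of secretory and absorptive epithelia, had levels of 7.04, 7.04 and 7.01 in OC.2+ cells, 9.58, 9.78 and 9.22 in OC.2- cells, and 5.96, 5.93 and 6.02 in adult hepatocytes. The groups did not overlap, and OC.2- replicate 3 was the lowest of its group. Car12 was 11.8-fold higher in OC.2- cells than in adult hepatocytes (3.56 ± 0.12), the 31st highest difference of all genes, and 5.64-fold lower in OC.2+ cells than in OC.2- cells (-2.50 ± 0.12). It was 2.09-fold higher in OC.2+ cells than in adult hepatocytes (1.06 ± 0.12).

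The summed markers of endothelial and stellate cells were also highest in OC.2- cells. Endothelial markers (5 of 6 measured) summed to 509 to 525 in OC.2+ cells, 2703 to 3498 in OC.2- cells and 575 to 741 in adult hepatocytes, and stellate and mesenchymal markers (7 of 7) to 931 to 965, 2312 to 2656 and 898 to 970. Single members differed from their sums: Pdgfrb, of the stellate list, was highest in adult hepatocytes, with means of 6.46, 7.16 and 8.05 in the same order. Bile duct markers (5 of 6) summed to 325 to 336, 339 to 372 and 301 to 315, with Krt19 at means of 6.02, 6.57 and 5.65, while Krt7 (6.07, 5.83 and 6.04) was lowest in OC.2- cells. Replicates 1, 2 and 3 of the OC.2- cells had endothelial sums of 3498, 2703 and 3035 and stellate sums of 2656, 2459 and 2312. Car12 stood at 9.58, 9.78 and 9.22 on these arrays. The part of these cells in the level of Car12 was not tested. The profiles nearest to Car12 belonged to Lpl (distance 0.41), lipoprotein lipase, Emp1 (0.47), an epithelial membrane protein, Slc36a2 (0.55), a proton-coupled amino acid transporter, Timp1 (0.68), a protease inhibitor, and Tnni1 (0.84), a troponin.

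Car14, a transmembrane enzyme reported from mouse hepatocytes, kidney and retina, stepped up in the opposite order to the red-cell pair. It had 6.00, 6.23 and 6.21 in OC.2+ cells, 7.70, 7.93 and 7.45 in OC.2- cells, and 8.73, 8.77 and 8.67 in adult hepatocytes. All 3 groups were apart. Car14 was 5.96-fold lower in OC.2+ cells (-2.57 ± 0.11) and 2.04-fold lower in OC.2- cells (-1.03 ± 0.11) than in adult hepatocytes, and 2.92-fold lower in OC.2+ cells than in OC.2- cells (-1.54 ± 0.11). Nearest to it were Acadvl (distance 0.27), of mitochondrial fatty acid oxidation, Adra1b (0.30), an adrenergic receptor, Ptprf (0.31), Adk (0.33), adenosine kinase, and Bmp1 (0.35).

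Car4 and Car9 were dim on every array. Car4, a lipid-anchored enzyme of capillary and kidney surfaces, ranged over 6.06 to 6.43 in OC.2+ cells, 6.16 to 6.33 in OC.2- cells and 6.14 to 6.24 in adult hepatocytes, and the 3 groups overlapped. Its differences were 0.01 ± 0.10 for OC.2+ minus OC.2- cells, 0.04 ± 0.10 for OC.2+ cells minus adult hepatocytes and 0.03 ± 0.10 for OC.2- cells minus adult hepatocytes. Car9, a tumour-associated enzyme induced by hypoxia, ranged over 6.46 to 6.68 in OC.2+ cells, 6.41 to 6.497 in OC.2- cells and 5.98 to 6.21 in adult hepatocytes. It was 1.33-fold higher in OC.2+ cells (0.41 ± 0.09) and 1.24-fold higher in OC.2- cells (0.31 ± 0.09) than in adult hepatocytes. The second of these calls ended after each other scaling (0.17 to 0.21) and without adult replicate 1 (0.23).

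Car8, the inactive member, binds the inositol trisphosphate receptor and is best known from Purkinje cells. It had levels of 6.04, 6.04 and 6.13 in OC.2+ cells, 7.01, 7.18 and 7.04 in OC.2- cells, and 8.42, 8.02 and 8.45 in adult hepatocytes. The order was that of Car14, with adult replicate 2 the lowest of its group. Car8 was 4.68-fold lower in OC.2+ cells (-2.23 ± 0.11) and 2.33-fold lower in OC.2- cells (-1.22 ± 0.11) than in adult hepatocytes, and 2.01-fold lower in OC.2+ cells than in OC.2- cells (-1.01 ± 0.11). Its nearest profiles were Cd164 (distance 0.30), Sec63 (0.37), Ndfip1 (0.38), Cyb5a (0.39) and Xiap (0.41). Beside Car8, Car14 and Car5a, the 8 hepatocyte markers were all lower in OC.2+ cells than in OC.2- cells (median -2.45). Over all genes 18.2% were called lower there. Against adult hepatocytes 7 of the 8 were lower in OC.2+ cells and 1, Afp, higher. In OC.2- cells 3 were lower, 2, Afp among them, higher, and 3 not called. The shares of all genes called lower and higher were 23.4% and 32.0% in OC.2+ cells and 20.9% and 23.7% in OC.2- cells. The part of these markers in the levels of Car8, Car14 and Car5a was not tested.

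Counted over the 10 genes at limma adjusted p under 0.05, 2 were higher and 4 lower in OC.2+ cells than in OC.2- cells, where 38.5% of all genes were called (20.3% higher and 18.2% lower). In OC.2- cells against adult hepatocytes 4 were higher and 5 lower, with 44.5% of all genes called (23.7% higher and 20.9% lower). After median centring the share of higher among called genes in that comparison was 38.1%, against 53.1% as deposited. In OC.2+ cells against adult hepatocytes the count was again 4 higher and 5 lower, with 55.4% of all genes called (32.0% higher and 23.4% lower). The arrays of both groups did not overlap for 6, 9 and 9 of the 10 genes in these comparisons, against 46.5%, 51.4% and 62.2% of all genes. At least 2-fold differences were seen in 2 genes higher and 3 lower, 3 higher and 5 lower, and 3 higher and 4 lower, against 3.69% and 6.63%, 4.06% and 6.59%, and 7.82% and 11.2% of all genes. The median difference of the 10 was -0.0032, -0.50 and -0.44, against 0.04, 0.07 and 0.11 over all genes. These contrasts chose the set, so the counts describe it only, and the comparisons with adult hepatocytes share the adult arrays.

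**Figure D3:**
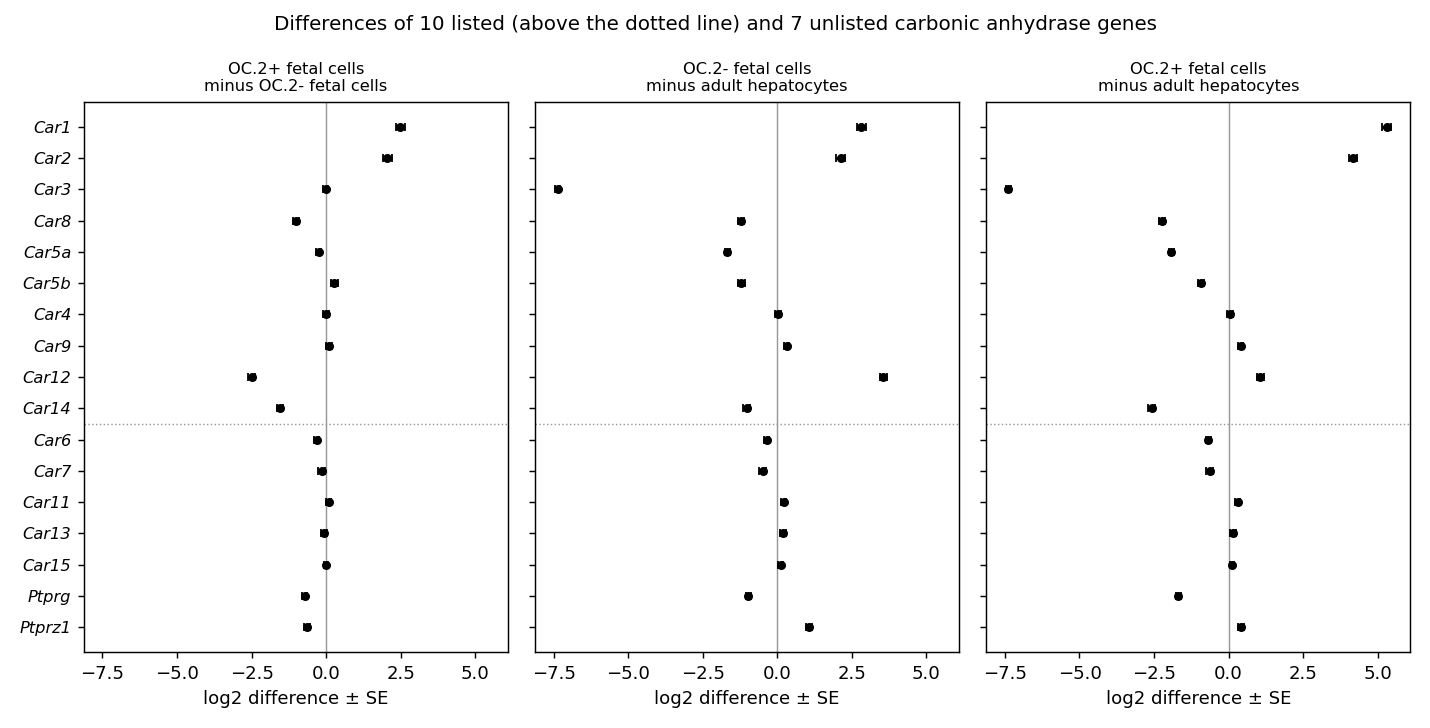
Log2 difference ± SE in the 3 comparisons for the 10 genes and, under the dotted line, 7 further genes of the family. The 10 genes run from -7.38 (Car3) to 5.31 (Car1) in OC.2+ cells minus adult hepatocytes, and the 7 further genes run from -1.69 (Ptprg) to 0.41 (Ptprz1).

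The rest of the family gives genes that the choice of the 10 did not use. Of 10 further carbonic anhydrase and related genes looked for, 7 had a probe set. Their differences ran from -0.71 to 0.08 in OC.2+ against OC.2- cells. Against adult hepatocytes they ran from -0.97 to 1.05 in OC.2- cells and from -1.69 to 0.41 in OC.2+ cells. In OC.2+ against OC.2- cells 3 fell and 0 rose, with 4 not called, a count near the 38.5% of all genes called. In each fetal group against adult hepatocytes 2 rose and 3 fell. The share of all genes called there was 44.5% in OC.2- and 55.4% in OC.2+ cells. Ptprg, a receptor phosphatase with an outer domain like carbonic anhydrase, stood at 5.83 to 5.94 in OC.2+ cells, 6.52 to 6.67 in OC.2- cells and 7.47 to 7.66 in adult hepatocytes. It fell 3.22-fold in OC.2+ cells (limma adjusted p = 8.61e-10) and 1.96-fold in OC.2- cells (limma adjusted p = 5e-07) against adult hepatocytes, and 1.64-fold in OC.2+ against OC.2- cells (limma adjusted p = 9.28e-06). This is the order of Car8 and Car14.

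Its relative Ptprz1 was highest in OC.2- cells, at 6.12 to 6.44, against 5.59 to 5.68 in OC.2+ cells and 5.06 to 5.35 in adult hepatocytes. Ptprz1 rose 2.07-fold in OC.2- cells over adult hepatocytes (limma adjusted p = 1.99e-06) and fell 1.56-fold in OC.2+ against OC.2- cells (limma adjusted p = 0.00018). Every level of Ptprz1 was under the median gene. Car6, the secreted enzyme of saliva, fell 1.6-fold in OC.2+ cells (limma adjusted p = 9.2e-06) and 1.28-fold in OC.2- cells (limma adjusted p = 0.00265) against adult hepatocytes, where it stood at 7.87 to 8.11. Car7, a cytosolic enzyme of brain, fell 1.56-fold (limma adjusted p = 0.000505) and 1.41-fold (limma adjusted p = 0.00441) in the same comparisons.

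Car11, a secreted relative without activity, rose 1.23-fold in OC.2+ cells over adult hepatocytes (limma adjusted p = 0.00634). In OC.2- cells it rose 1.16-fold (limma adjusted p = 0.0445), a call that ended without any 1 array except adult replicate 3 (adjusted p from 0.057 to 0.173, differences from 0.15 to 0.24). It ended also after median centring (0.11, limma adjusted p = 0.287) and with the 2 groups alone (limma adjusted p = 0.0761). Car15, a lipid-anchored enzyme of kidney, ranged over 6.14 to 6.36 in OC.2+ cells, 6.24 to 6.29 in OC.2- cells and 6.11 to 6.19 in adult hepatocytes and was not called in any comparison (limma adjusted p from 0.228 to 0.997).

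Genes that work with carbonic anhydrases were counted in lists. Their counts are to be read beside the share of all genes called. That share was 38.5% in OC.2+ against OC.2- cells. Against adult hepatocytes it was 44.5% in OC.2- and 55.4% in OC.2+ cells. Of 10 Slc4 bicarbonate transporters, 2 rose and 2 fell in OC.2+ against OC.2- cells, 4 rose and 1 fell in OC.2- cells relative to adult hepatocytes, and 6 rose and 2 fell in OC.2+ cells against adult hepatocytes. Under all 3 other scalings 1 of the 4 (Slc4a1) and 3 of the 6 were still called, and Slc4a3 and Slc4a10 were among those called under none of them in both comparisons. The 1 that fell in OC.2- cells, Slc4a2 (-0.20), was not called in 12 of 17 alternatives. Slc4a1, the chloride and bicarbonate exchanger of the red-cell membrane, stood at 11.76 to 11.92 in OC.2+ cells, 9.93 to 10.17 in OC.2- cells and 6.16 to 6.35 in adult hepatocytes. It rose 48.2-fold in OC.2+ cells (limma adjusted p = 7.77e-14) and 13.7-fold in OC.2- cells (limma adjusted p = 3.4e-12) over adult hepatocytes, and 3.51-fold in OC.2+ over OC.2- cells (limma adjusted p = 3.44e-09). Slc4a4, a sodium and bicarbonate cotransporter, stood at 6.35 to 6.42 in OC.2+ cells, 7.77 to 8.25 in OC.2- cells and 7.77 to 8.26 in adult hepatocytes. It fell 3.14-fold in OC.2+ against OC.2- cells (limma adjusted p = 3.86e-07), while OC.2- cells minus adult hepatocytes gave 0.01 ± 0.13 (limma adjusted p = 0.956, 95% interval -0.28 to 0.30).

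Of the gas and ammonia channels (5 of 6 measured), 3 rose and 1 fell in OC.2+ against OC.2- cells. The same counts held in OC.2+ cells against adult hepatocytes. In OC.2- cells against adult hepatocytes 4 rose and 0 fell, of which 3 kept the call in every alternative and Rhbg did not. In these comparisons, in the same order, 38.5%, 55.4% and 44.5% of all genes were called. The red-cell proteins Rhag and Rhd rose 24.0-fold (limma adjusted p = 4.43e-13) and 48.3-fold (limma adjusted p = 4.16e-13) in OC.2+ cells over adult hepatocytes. In OC.2- cells they rose 5.65-fold (limma adjusted p = 2.76e-10) and 14.4-fold (limma adjusted p = 3e-11). Slc4a1 and Rhag are also on the list of red-cell markers.

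Most enzymes that use bicarbonate were lower in fetal cells. Of 9, 1 rose and 7 fell in OC.2+ against OC.2- cells, 1 rose and 7 fell in OC.2- cells relative to adult hepatocytes, and 1 rose and 8 fell in OC.2+ cells against adult hepatocytes. The list medians were -0.99, -0.78 and -1.84, against 0.04, 0.07 and 0.11 over all genes. Over all genes 18.2%, 20.9% and 23.4% were called lower. Cps1, the carbamoyl phosphate synthetase that opens the urea cycle, stood at 8.31 to 8.45 in OC.2+ cells, 11.37 to 11.69 in OC.2- cells and 12.20 to 12.36 in adult hepatocytes. It fell 15.2-fold in OC.2+ cells (limma adjusted p = 1.41e-12) and 1.71-fold in OC.2- cells (limma adjusted p = 1.73e-05) against adult hepatocytes. Pc, pyruvate carboxylase, fell 6.13-fold (limma adjusted p = 8.91e-11) and 1.63-fold (limma adjusted p = 7.14e-05) in the same comparisons. Pccb, of propionate breakdown, fell 6.3-fold (limma adjusted p = 1.5e-11) and 2.65-fold (limma adjusted p = 2.2e-08). The one that rose was Cad, the bicarbonate-using enzyme of pyrimidine synthesis, by 2.36-fold in OC.2+ cells (limma adjusted p = 6.18e-09) and 1.27-fold in OC.2- cells (limma adjusted p = 0.0017) over adult hepatocytes. Cps1 is also on the hepatocyte marker list.

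**Figure D4:**
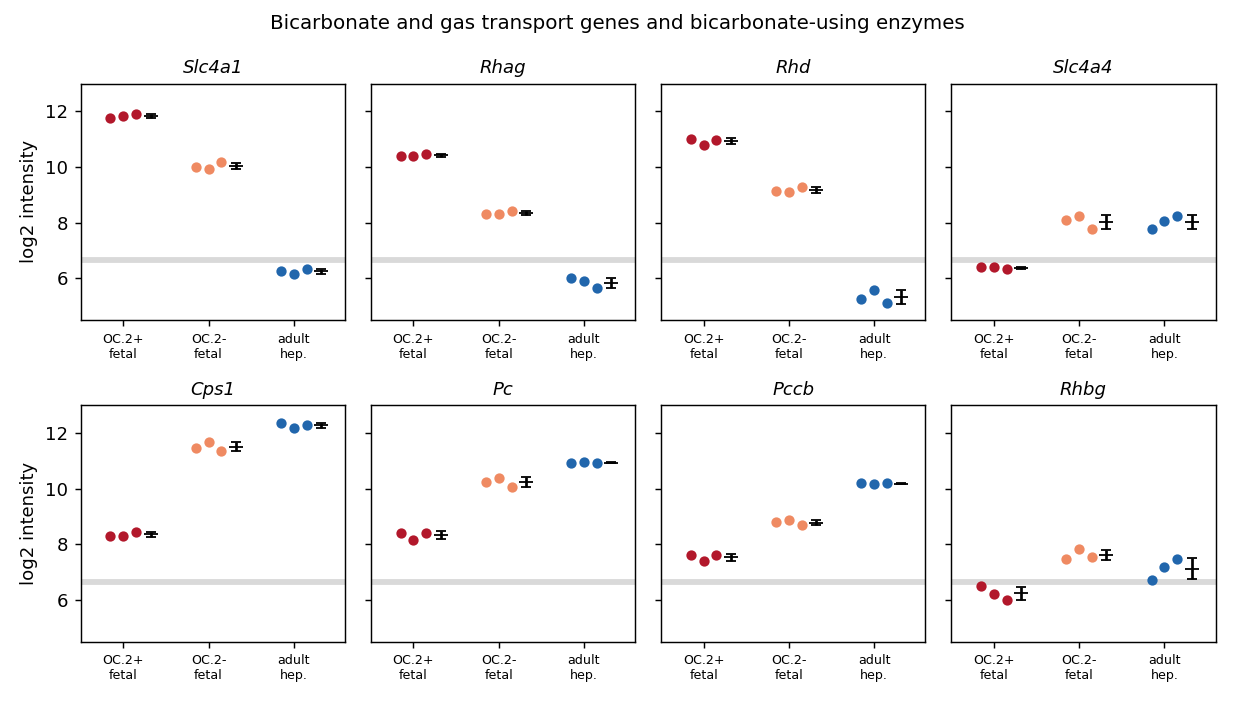
Log2 intensity of 8 genes of bicarbonate and gas transport and of bicarbonate use on each array, with OC.2+, OC.2- and adult samples from left to right. Dots are arrays, black bars are means ± SD (n = 3) and the grey band is the range of array medians. Slc4a1, Rhag and Rhd step down from OC.2+ to adult, and Cps1, Pc and Pccb step up.

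The other lists were more divided. In the comparisons below, in their order, 38.5%, 44.5% and 55.4% of all genes were called. The Slc26 counts were near these shares. Of 10 Slc26 anion exchangers, 3 rose and 1 fell in OC.2+ against OC.2- cells, 2 rose and 3 fell in OC.2- cells relative to adult hepatocytes, and 4 rose and 1 fell in OC.2+ cells against adult hepatocytes. Under all 3 other scalings 2 of the first 3, 0 of the 2 (Slc26a3 and Slc26a5) and 1 of the 4 genes that rose were still called, and all those that fell were. Slc26a1, a sulphate exchanger of liver and kidney, fell 7.27-fold in OC.2+ cells (limma adjusted p = 1.71e-11) and 5.07-fold in OC.2- cells (limma adjusted p = 3.65e-10) against adult hepatocytes. Of 12 genes of proton and monocarboxylate transport, 1 rose and 4 fell, 2 rose and 5 fell, and 3 rose and 6 fell in the same order of comparisons. In the last of these, 1 of the 3 that rose was still called under all 3 other scalings, and Slc9a2 and Slc9a3 (0.26 and 0.25) were called under none. Slc9a7 (-0.27) lost its call in 7 of 16 alternatives. Slc16a1 (-0.55) lost its call after a further quantile normalisation, and its highest value over the alternatives was 0.01. In OC.2- cells against adult hepatocytes 2 of the 5 that fell kept the call in every alternative. Nherf1 (-0.32), Slc16a1 (-0.69) and Slc9a7 (-0.34) did not. The monocarboxylate transporter Slc16a7 fell 9.67-fold in OC.2+ cells (limma adjusted p = 2.91e-12) and 4.19-fold in OC.2- cells (limma adjusted p = 6.73e-10) against adult hepatocytes.

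Hypoxia-inducible genes were counted because Car9 and Car12 are known targets of that response in human cells. Of 16, 1 rose and 8 fell in OC.2+ against OC.2- cells, 8 rose and 2 fell in OC.2- cells relative to adult hepatocytes, and 7 rose and 5 fell in OC.2+ cells against adult hepatocytes. The shares of all genes called in these comparisons were 38.5%, 44.5% and 55.4%. Between the fetal groups 5 of the 8 that fell kept the call in every alternative. The 1 that rose, Mxi1 (0.65), did not: its arrays overlapped, and its call ended, among others, with the 2 groups alone and without OC.2+ replicate 1 or 3 or OC.2- replicate 1 or 3. Ldha (-0.23), of lactate production, lost its call in 7 of 17 and was called in the other direction after cyclic loess (0.28). Ndrg1, a stress-response gene, rose 4.02-fold in OC.2+ cells (limma adjusted p = 1.21e-10) and 4.85-fold in OC.2- cells (limma adjusted p = 1.22e-10) over adult hepatocytes. Egln3 was also higher than in adult hepatocytes, by 2.10 in OC.2+ and 1.86 in OC.2- cells on the log2 scale. So was Slc2a1, by 1.13 and 1.97. Vegfa, the endothelial growth factor, fell 4.31-fold in OC.2+ cells against adult hepatocytes (limma adjusted p = 3.72e-09) and 2.93-fold against OC.2- cells (limma adjusted p = 1.85e-07). Vegfa also fell in OC.2- cells against adult hepatocytes (-0.56). That call ended after a further quantile normalisation (-0.10, limma adjusted p = 0.485). The members of this list thus differed in direction among themselves.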

How the data were processed

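Total RNA (150 ng per preparation) was amplified and hybridised to 1 array each, per the labels' protocols. The deposited values are linear intensities, and the submitters' processing notes name Partek 6.6 and RMA with no role or order. RMA usually makes array distributions alike, which can hide a change shared by most genes, and compresses dim genes. No genome build is named in those notes. Of 28826 rows, 15209 carried 1 gene symbol, 306 several and 13311 none, and only the first were used. Of these symbols 15178 were found in a table of rat genes (GRCr8), which changed 0.

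Log2 was taken, and the probe set with the highest mean stood for a gene (14497 genes, no filter). Group means were fitted with limma 3.58.1 (R 4.3.3) over all 9 arrays with 6 residual degrees of freedom. P-values had a Benjamini-Hochberg adjustment across the 14497 genes, and a call means adjusted p under 0.05. The fit was tested on simulated data. The p-values measure the spread between preparations, and 3 arrays a group limit the precision.

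The members and the gene lists were chosen with earlier results of these data known. Named were the 10 members, further family genes with a probe set, and from each partner list up to 2 called genes each way per comparison. Of these last, the values given are mainly of genes that differed at least 2-fold, with other values of the same genes beside them. Not every such gene is given, and Acacb, Bsg and Sult2a1 are among those left out. Rhbg and Bnip3 are in the closing section. Genes named because a call ended under an alternative, markers named beside Car12, and Afp among the hepatocyte markers were chosen after their values were seen. The 5 nearest profiles were taken for members whose group means spanned at least 1 log2 unit. Alternatives were 3 scalings, a filter on dim genes, averaging of probe sets, another variance model, fits of 2 groups only, a replicate block, a threshold of 0.01 and leaving out each array. Close relatives in the family can share probe signal.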

Additional observations from a re-analysis of the deposited data

Results flagged for a closer look

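Among the genes of the partner lists, hypoxia-inducible genes included, 2 differed from adult hepatocytes in opposite directions in the 2 fetal groups. For both the difference between the fetal groups was itself called. Rhbg, an ammonia transporter, stood at 6.02 to 6.49 in OC.2+ cells, 7.46 to 7.82 in OC.2- cells and 6.72 to 7.48 in adult hepatocytes. It was lower in OC.2+ cells (-0.89 ± 0.17, limma adjusted p = 0.000744) and higher in OC.2- cells (0.48 ± 0.17, limma adjusted p = 0.039) than in adult hepatocytes, with a difference of -1.37 between the fetal groups (limma adjusted p = 2.81e-05). The call in OC.2- cells against adult hepatocytes rests on overlapping arrays and ended in 8 of 17 alternatives, among them after median centring (0.38), with the 2 groups alone (adjusted p = 0.0657), without adult replicate 1 (0.28) or 2 (0.51), without OC.2- replicate 2 (0.38) or 3 (0.51), and without OC.2+ replicate 2 (adjusted p = 0.0576).

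Bnip3, a mitochondrial protein induced by hypoxia, stood at 8.88 to 9.02 in OC.2+ cells, 10.58 to 10.94 in OC.2- cells and 9.58 to 9.62 in adult hepatocytes. It was lower in OC.2+ cells (-0.65 ± 0.09, limma adjusted p = 5.36e-05) and higher in OC.2- cells (1.17 ± 0.09, limma adjusted p = 3.62e-07) than in adult hepatocytes, and the fetal groups differed by -1.82 (limma adjusted p = 5.94e-09). The difference of OC.2+ cells from adult hepatocytes was -0.14 after a further quantile normalisation (limma adjusted p = 0.149). Both comparisons with adult hepatocytes share the adult arrays.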

How the results depend on the processing

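Of the 30 comparisons of listed genes, 27 had the same call under every refit that held the gene (17, 9 of them without 1 array, or 16 for Car4, Car5b and Car9, which the filter on dim genes removes), and 3 did not: Car5a and Car5b between the fetal groups and Car9 between OC.2- cells and adult hepatocytes. Of 21 comparisons of the further family genes, 18 did not change call. The exceptions were Car11 in OC.2- cells, Car6 in OC.2- cells after a further quantile normalisation (-0.19, limma adjusted p = 0.0674), and Ptprz1 in OC.2+ cells after cyclic loess (0.26, limma adjusted p = 0.0596), all against adult hepatocytes. With only genes above the median level, fewer genes were tested: 2043 were called higher in OC.2- cells against adult hepatocytes (3431 without the filter). In OC.2+ cells relative to adult hepatocytes 2664 were (4643), and 40 of 45 further family and partner genes were called there (61 of 79).

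The median difference of all genes between OC.2+ cells and adult hepatocytes was 0.11 as deposited and -0.0036 after cyclic loess, so differences of that size have no settled sign, those of Car4 included. Replicate numbers were not shown to pair the samples: deviations of same-numbered arrays correlated by -0.23 to 0.11, and those of differently numbered arrays by -0.16 to 0.29. With the replicate number as a block, 6, 9 and 9 of the 10 listed genes were called in OC.2+ against OC.2- cells, OC.2- cells against adult hepatocytes, then OC.2+ cells against adult hepatocytes, as without it, and 37, 49 and 61 of 79 further genes (38, 53 and 61 without it). The block ended the calls of Car11 (limma adjusted p = 0.0635) and Rhbg (limma adjusted p = 0.0507) in OC.2- cells against adult hepatocytes. Leaving out each array gave 5 to 6, 8 to 9 and 9 of the listed genes. Signal over background is not known, which limits statements on genes near or under the array medians.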
